A study of Mus musculus with 2 samples.

Results

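The kinases described here are 10 mouse genes of the polo (Plk1, Plk2, Plk3, Plk4), Aurora (Aurka, Aurkb, Aurkc) and NEK (Nek1, Nek2, Nek7) families that act at centrosomes, spindles and cilia. They were found by matching the Entrez gene IDs of the deposited table to RefSeq symbols, and all 10 matched among 44002 rows. The values compared are poly(A) RNA levels in whole testis of BALB/c mice at postnatal day 45, in 1 library of BPA testis, from mice exposed to bisphenol A (BPA), a monomer of plastics that can bind estrogen receptors, and 1 library of control testis. Material of 3 samples was mixed for each library, so there is no measure of spread within a group and no test between the conditions was possible. The sources used here give neither the dose of BPA nor how and for how long it was given. The members were selected on family and on the 2 listed levels and their ratio, which had singled out Plk4 and Nek2, so the levels below are a description.

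A centrosome is a pair of centrioles in a protein matrix that nucleates microtubules. Polo-like kinases govern entry into M phase, maturation of the centrosome and copying of the centrioles, Aurora kinases build the spindle and watch over the attachment of chromosomes, and NEK kinases part the centrosomes and act at spindles and cilia. In the testis these functions serve the mitoses of spermatogonia and the meiotic divisions of spermatocytes, and the centrioles of spermatids later anchor the sperm tail.

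In BPA testis Plk4, the kinase that starts the building of a new centriole, stood at 18.1 CPM (reads per 1000000 reads of a library), against 2.87 CPM in control testis. Nek2, which dissolves the linker between centrosomes, stood at 7.78 CPM in BPA testis, against 17.7 CPM in control testis. These differences run in opposite directions. Another 7 kinases lay within 2-fold, with log2 ratios of BPA over control from -0.16 (Aurkb) to 0.08 (Plk2), and Plk3 was under 1 CPM in both libraries. A difference of 2-fold or more on log2(CPM + 0.1), among genes that reached 1 CPM in either library, is called here. By that rule 1 of 9 kinases was higher and 1 lower, while of all 19389 genes 1.32% were higher and 1.95% lower, 3.28% in either direction. The choice of the kinases used the same measurements, so nothing is read from their share. Both calls held on the nearer bound of the counting interval, which 1.35% of all genes passed in either direction.

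The DNA before the start of the 2 differing kinases is shown beside that of Plk1, which lay within 2-fold. RefSeq promoter entries of GRCm38.p6 matched 8 of the 10 kinases; Aurkb and Nek1 had none. The 250 bases before the start site of the promoter entry are printed 5′ to 3′ on the strand of the gene, and capitals mark CCAAT on either strand, the box bound by the factor NF-Y in many genes of the cell cycle.
Plk4, chr3:40799701-40799950, plus strand: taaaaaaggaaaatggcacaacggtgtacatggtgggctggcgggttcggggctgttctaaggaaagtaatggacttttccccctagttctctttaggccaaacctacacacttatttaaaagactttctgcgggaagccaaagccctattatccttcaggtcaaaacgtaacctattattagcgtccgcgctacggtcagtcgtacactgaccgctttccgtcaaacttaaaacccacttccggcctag
Nek2, chr1:191821223-191821472, plus strand: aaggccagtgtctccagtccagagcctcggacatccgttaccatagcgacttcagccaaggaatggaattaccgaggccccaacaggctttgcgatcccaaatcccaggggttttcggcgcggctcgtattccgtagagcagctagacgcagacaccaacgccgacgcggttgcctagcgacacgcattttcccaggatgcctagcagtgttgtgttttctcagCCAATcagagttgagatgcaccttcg
Plk1, chr7:122159185-122159434, plus strand: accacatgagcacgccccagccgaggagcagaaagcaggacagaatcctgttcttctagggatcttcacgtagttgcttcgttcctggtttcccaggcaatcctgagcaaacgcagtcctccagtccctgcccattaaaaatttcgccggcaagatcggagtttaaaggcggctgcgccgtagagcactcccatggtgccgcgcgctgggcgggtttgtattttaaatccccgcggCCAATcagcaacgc
Start sites of the entries can differ from the ends of the gene spans. Inside the RefSeq span of the gene lie 24 bases of the Nek2 window. So do 38 bases of the Aurkc window and the whole Aurka window, neither printed. The Plk4 and Plk1 windows lie outside the spans of their genes. CCAAT was found once in the Nek2 window and once in that of Plk1, and at 2 positions in that of Aurka. It was not found in the Plk4 window, nor in those of Plk2, Plk3, Aurkc and Nek7. Of all 32851 promoter entries, 33.9% hold CCAAT or its reverse complement ATTGG in this window. The letters TTTGAA, a core of the cell cycle homology region, were found on neither strand in any of the 8 windows and in 16.0% of all entries. A match of letters is a description and not a bound site.

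The libraries were similar in depth and in the summed levels of germ cell markers. Reads recovered for genes at 1 CPM or more in either library summed to 45189255 for BPA testis and 41729329 for control testis. The median log2 ratio of all genes was 0.004. Whole testis was recognisable by its markers: summed levels were 5493 CPM in BPA testis and 5240 CPM in control testis for 10 spermatocyte genes, 1156 CPM with BPA and 1174 CPM in control for 10 round spermatid genes, 22338 CPM with BPA and 21054 CPM in control for 10 elongating spermatid genes, and 808 CPM with BPA and 860 CPM in control for 10 spermatogonial genes, all within 2-fold. Of 11 Sertoli cell markers, 10 had a log2 ratio above 0 and lay within 2-fold, with sums over the list of 1037 CPM in BPA testis and 903 CPM in control testis. The other, the homeobox gene Rhox8, was called lower, at 1.43 CPM in BPA testis against 9.04 CPM in control testis (log2 ratio -2.58). All 9 adipose markers had a ratio below 0 and 7 of them were 2-fold or more lower, against 1.95% of all genes, with sums of 27.4 CPM in BPA testis and 88.9 CPM in control testis. Leydig cell genes (8 of 8 at 1 CPM) summed to 922 CPM with BPA and 865 CPM in control, peritubular genes (4 of 5) to 84.8 CPM with BPA and 73.4 CPM in control, macrophage genes (5 of 6) to 44.7 CPM with BPA and 42.8 CPM in control, and endothelial genes (5 of 5) to 44.5 CPM with BPA and 43.1 CPM in control, all within 2-fold. Tagln and Cd163 were listed at 0. Of 6 epididymal genes with a row only Cst8 reached 1 CPM, and Lcn9, Defb20, Crisp1, Adam7 and Cst11 were listed at 0. The part of these cell types in the kinase levels was not tested, and in a tissue sample fewer cells of a type and less RNA per cell cannot be told apart.

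**Figure D1:**
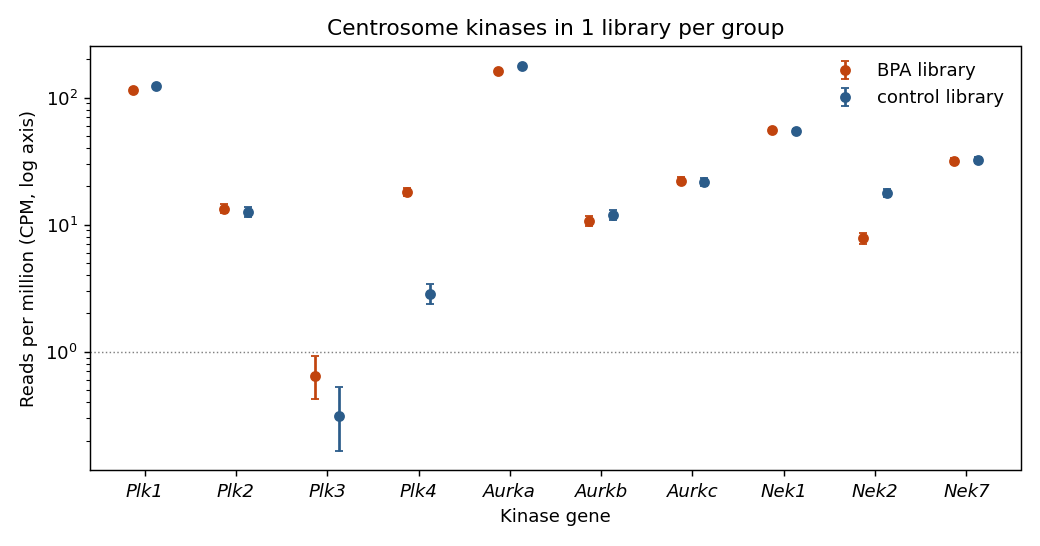
Level of each kinase in CPM (log axis) in BPA testis and control testis; bars are exact 95% Poisson intervals of the reads and cover counting error only, and the dotted line is 1 CPM. Plk4 (18.1 CPM in BPA testis, 2.87 CPM in control testis) and Nek2 (7.78 CPM in BPA testis, 17.7 CPM in control testis) are the pairs 2-fold or more apart among kinases at 1 CPM, the narrow bars of Plk1 and Aurka also do not overlap, and the points of Plk3 lie under 1 CPM.

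Plk4 phosphorylates the scaffold protein STIL at the start of centriole assembly, and its amount is normally held low, since an excess makes surplus centrioles. It was read 820 times in BPA testis and 120 times in control testis, and its CPM was 6.29-fold higher (exact 95% binomial interval of the reads 5.19 to 7.69, counting error only). The authors' deposited table gives Plk4 a log2 fold change of 2.65 with a p-value of 0.00047 and a q-value of 0.226, and does not call it. A smaller p-value stands in the authors' deposited table for 60 of 29279 genes, 180 (0.615%) have an unadjusted p-value under 0.05, Plk4 and Nek2 among them, and 28 (0.0956%) are called. With 1 pooled library per group, the deposited p-values cannot measure spread between animals, and the test behind them is not named. Across all 19389 genes, 29 had a log2 ratio at least as high as the 2.61 of Plk4, itself included. Plk4 had been singled out on that ratio, so these ranks only describe it. Of its 50-base words, 3.83% also occur in transcripts at other loci, 2.64% in the pseudogene Gm9742 on chromosome 13, so a small part of its reads is uncertain. No exon of another annotated gene overlaps its exons.

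Plk1 drives entry into M phase and, in spermatocytes, the disassembly of the synaptonemal complex. It was read 5204 times in BPA testis (115 CPM) and 5138 times in control testis (123 CPM), a difference of -6.70% (interval -10.2 to -3.01). Plk2, a kinase of centriole copying and of stress responses, stood at 13.3 CPM in BPA testis and 12.6 CPM in control testis, and the interval of its difference ran from -6.05% to 19.1%. The interval thus held 0 for Plk2 and not for Plk1, which has many more reads, but neither has a replicate check. Plk1 shares 6.56% of its words with the pseudogene Plk-ps1 on chromosome 5, and 156 bases of its exons overlap Gm44985 on the opposite strand.

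Plk3, a stress-responsive polo kinase, is listed at 0 in both libraries because the authors' table writes CPM under 1 as 0. The authors' deposited table still gives it a log2 fold change of 1.04, with a p-value of 0.733. Of all pairs of whole reads under 1 CPM, 1 pair gives that ratio: 29 reads in BPA testis and 13 in control testis, or 0.639 CPM with BPA against 0.311 CPM in control. On that pair the ratio was 2.05 with an interval from 1.04 to 4.31, so a difference of 2-fold cannot be told from a slight one at this depth. Its exons overlap 84 bases of Tctex1d4 on the opposite strand, a gene listed at 0 in both libraries.

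Aurora kinases differed little. Aurka, which matures centrosomes and builds the spindle poles, had the highest level per length of the 10, with 7288 reads in BPA testis (161 CPM) and 7341 in control testis (176 CPM), a difference of -8.55% (interval -11.5 to -5.52). Aurkb, the enzyme of the chromosomal passenger complex, stood at 10.7 CPM in BPA testis and 11.9 CPM in control testis, with an interval of the difference from -21.0% to 1.88%. Aurkc, its paralog of meiotic germ cells, stood at 22.1 CPM in BPA testis and 21.6 CPM in control testis, with an interval from -6.58% to 12.1%. For Aurkc the level is uncertain, because 54.8% of its words also occur at other loci, 40.6% in the processed pseudogene Gm12463 on chromosome 4. Reads of shared words may come from another locus or may have gone uncounted. Aurka and Aurkb shared no word with another locus. The 3 genes together summed to 193 CPM in BPA testis and 209 CPM in control testis.

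Nek2 phosphorylates the linker proteins that tie centrosomes together and has also been described on condensing chromosomes of mouse spermatocytes. It was read 353 times in BPA testis and 741 times in control testis, 2.28-fold lower with BPA (interval 2.005 to 2.594). The lower bound lies close to 2-fold. The authors' deposited table gives Nek2 a log2 fold change of -1.19 with a p-value of 0.0466 and a q-value of 0.99996, and 177 genes there have a smaller p-value. Across all genes, 255 had a log2 ratio at or below the -1.18 of Nek2, which had also been singled out on its ratio. Exons of Nek2 overlap 298 bases of the antisense transcript Gm38037, and the protocol names no strand-marking step, so reads of that stretch cannot be assigned.

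The other 2 NEK kinases lay within 2-fold. Nek1, a kinase of primary cilia and DNA damage responses whose loss causes polycystic kidneys in mice, stood at 55.7 CPM in BPA testis and 54.5 CPM in control testis (difference 2.23%, interval -3.44 to 8.23). Nek7, which acts at the spindle and, in macrophages, in activation of the NLRP3 inflammasome, stood at 31.6 CPM in BPA testis and 32.3 CPM in control testis (difference -2.36%, interval -9.42 to 5.26). Nek2 lay apart among the 3, but it had been singled out on its levels and ratio, so nothing is read from this. Exons of Nek1 overlap 111 bases of Gm45809 on the same strand, and those of Nek7 overlap 118 bases of Gm28501 on the opposite strand.

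**Figure D2:**
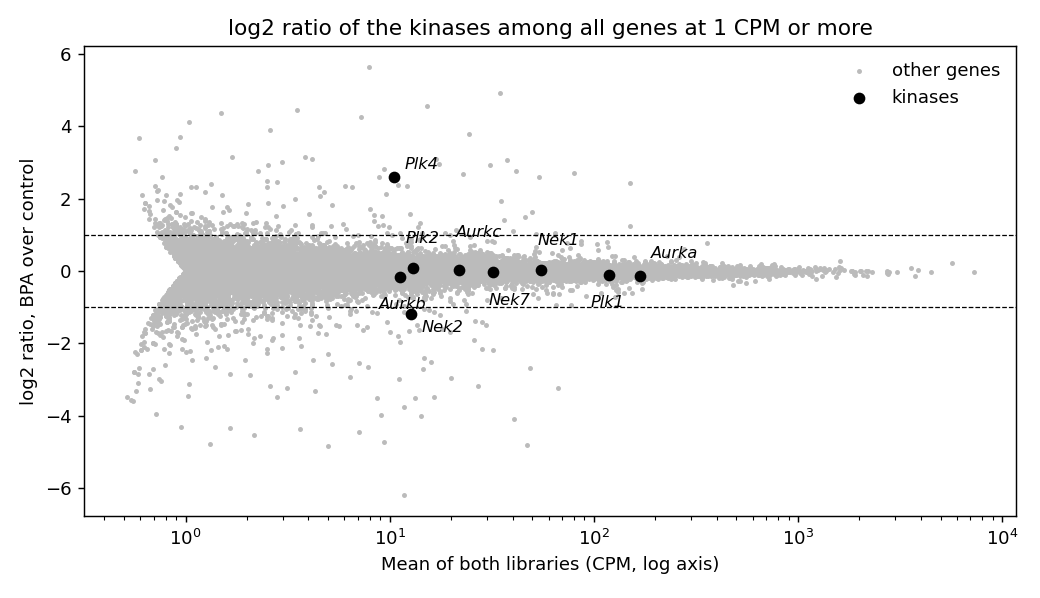
Mean CPM of both libraries (log axis) against the log2 ratio of BPA over control, after adding 0.1 CPM, for 19389 genes at 1 CPM or more; black points are the 9 kinases that reach this floor and dashed lines mark 2-fold. Plk4 lies at 2.61 and Nek2 at -1.18, and the other 7 lie between -0.16 and 0.08.

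Levels were also set on a common scale per length, as CPM per kilobase of annotated exon (RPKM), to order the kinases. In both libraries Aurka came first (63.5 RPKM in BPA testis, 69.4 RPKM in control testis), followed by Plk1 (52.2 RPKM with BPA, 55.9 RPKM in control), Aurkc (14.5 RPKM with BPA, 14.2 RPKM in control), Nek1 (7.06 RPKM with BPA, 6.91 RPKM in control) and Nek7 (4.28 RPKM with BPA, 4.38 RPKM in control). Counting intervals of neighbours in this order did not overlap down to Nek7. The place of Aurkc is uncertain all the same, since 54.8% of its words also occur at other loci. Nek2 came ninth in BPA testis, at 1.72 RPKM, against seventh in control testis, at 3.93 RPKM. In control testis its counting interval overlapped that of Aurkb, and the interval of Aurkb overlapped that of Nek7. Aurkb stood at 3.62 RPKM in BPA testis and 4.04 RPKM in control testis. Plk4 came eighth in BPA testis, at 2.64 RPKM, with an interval that overlapped that of Plk2 (2.96 RPKM). In control testis Plk4 was ninth, at 0.419 RPKM, below Plk2 at 2.80 RPKM. Plk3 was last in both, at 0.253 RPKM in BPA testis and 0.123 RPKM in control testis. With the longest transcript as length, Plk4 (5.19 RPKM) passed Plk2 (4.75 RPKM) in BPA testis.

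A gene beside Plk4 differed by a like ratio. On GRCm38, Plk4 (gene ID 20873) spans chromosome 3 from 40799951 to 40816883. Hspa4l, an HSP110 family chaperone abundant in the testis, lies 3.85 kb before it and stood at 92.7 CPM in BPA testis, against 15.2 CPM in control testis, 6.09-fold higher (interval 5.60 to 6.62). Abhd18, 54.2 kb behind Plk4, stood at 1.94 CPM in BPA testis, against 0.742 CPM in control testis, 2.62-fold higher (interval 1.72 to 4.08). It reached the floor of 1 CPM only in BPA testis, where it was higher. The folds of Plk4 and Hspa4l have overlapping intervals. Mfsd8, a lysosomal membrane protein gene 1.18 kb behind Plk4, is listed at 0 in both libraries. Of 13 neighbours within 1 Mb at 1 CPM or more, 2 (15.4%) were called, both higher, Abhd18 among them, against 3.28% of all genes, and the median log2 ratio of the 13 was -0.17. Whether reads of Hspa4l and Plk4 come from 1 transcript was not tested, as the files hold 1 value per gene.

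Around Nek2 no neighbour was called. Nek2 (gene ID 18005) spans chromosome 1 from 191821449 to 191833049. None of 24 neighbours within 1 Mb at 1 CPM or more was 2-fold apart, and their median log2 ratio was 0.06. The nearest gene behind it, the long noncoding 1700034H15Rik, stood at 2.60 CPM in BPA testis and 1.41 CPM in control testis, in the direction opposite to Nek2. The nearest annotated gene before it, the pseudogene Gm20203, had no value. A further annotated pseudogene, also without a value, lies inside the span of Nek2. Near kinases that lay within 2-fold, 2 of 23 neighbours of Aurka (Pck1 and Zbp1, both lower, at 1.05 CPM or less in either library) were called, or 8.70%, and 6 of 68 neighbours of Aurkb, or 8.82%, against 3.28% of all genes. Pck1 and Zbp1 reached the floor of 1 CPM only in control testis, where they were higher. The called neighbours of Aurkb begin 846 kb away. No neighbour of the other 6 kinases was called.

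**Figure D3:**
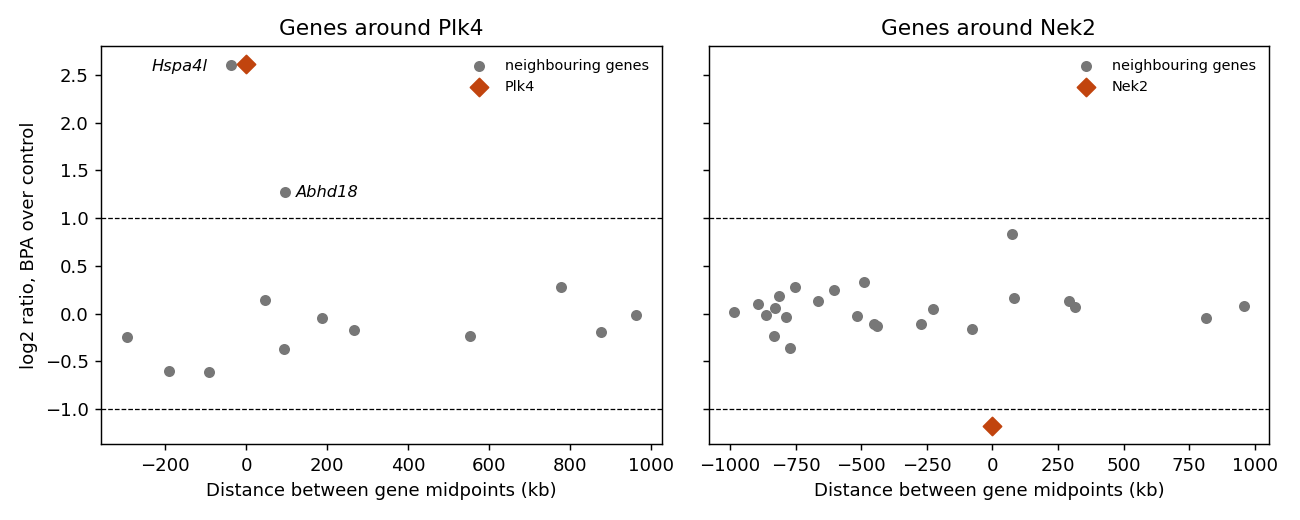
Genes at 1 CPM or more within 1 Mb of Plk4 (left panel) and Nek2 (right panel); the horizontal axis is the distance between gene midpoints in kb, the vertical axis the log2 ratio of BPA over control, diamonds are the kinases and dashed lines mark 2-fold. Hspa4l lies at 2.60 beside Plk4 at 2.61 and Abhd18 at 1.28, while Nek2 lies alone at -1.18.

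Genes with levels most like those of Plk4, by distance in log2 CPM over the 2 libraries, were Gm12366 (18.5 CPM in BPA testis, 3.49 CPM in control testis), the replication helicase gene Cdc45 (15.3 CPM with BPA against 2.44 CPM in control) and Crip2 (15.7 CPM with BPA against 3.52 CPM in control), on chromosomes 4, 16 and 12. Those most like Nek2 were Gm32865 (7.34 CPM with BPA against 16.3 CPM in control), Kank3 (7.9995 CPM with BPA against 15.6 CPM in control) and the transcription factor gene Sox5 (7.14 CPM with BPA against 20.2 CPM in control), on chromosomes 16, 17 and 6. With 2 libraries such likeness says no more than that these levels were close.

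Partners and substrates of the kinases lay within 2-fold. Of 99 companion genes in 6 lists, 97 reached 1 CPM, and 0 were higher and 0 lower by 2-fold, while 3.28% of all genes were called. That share includes many low genes: 256 genes were higher and 379 lower, but 80 and 103 with a floor of 4 CPM. Most companions lay above 4 CPM, so 3.28% is not the share at like levels, and nothing is read from the contrast. Their median log2 ratio was -0.004, against 0.004 over all genes, and the range ran from -0.40 to 0.47. Levels of the companions summed to 12578 CPM in BPA testis and 12763 CPM in control testis.

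Centriole duplication genes, which act with Plk4, had a median log2 ratio of -0.01 over 21 genes, all within 2-fold. The cartwheel gene Sass6 stood at 67.8 CPM in BPA testis, against 58.2 CPM in control testis (log2 ratio 0.22), and Cep78 at 12.8 CPM with BPA against 15.1 CPM in control (-0.24). Exons of Sass6 overlap Trmt13 and an antisense transcript, so its reads are uncertain. Pericentriolar and gamma-tubulin genes, 24 in all, had a median of 0.06. Among them the centrin gene Cetn2 stood at 8.55 CPM in BPA testis, against 6.12 CPM in control testis (0.47), and Tubgcp6, of the gamma-tubulin ring, at 8.77 CPM with BPA against 10.5 CPM in control (-0.26), with exons that overlap Selenoo. No gene of these 2 lists differed by as much as Plk4, but Plk4 had been singled out on its ratio. Nothing is read from that contrast.

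Linker genes and substrates of Nek2, 11 in all, had a median of -0.04. Lrrc45, a linker protein gene, stood at 7.40 CPM in BPA testis, against 5.62 CPM in control testis (0.39), and Hmga2, a chromatin protein that NEK2 phosphorylates, at 40.3 CPM with BPA against 53.4 CPM in control (-0.40). Aurora activators and passenger partners, 12 in all, had a median of 0.02. Their extremes were Ajuba, an activator of Aurora A, at 20.1 CPM in BPA testis against 16.0 CPM in control testis (0.33), and Sgo1, a guardian of centromeric cohesion, at 2.64 CPM with BPA against 3.21 CPM in control (-0.27).

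Upstream and docking genes of polo kinases and the M-phase switch, 21 at 1 CPM, had a median of -0.06. The mitotic kinesin gene Kif20a stood at 15.1 CPM in BPA testis, against 19.3 CPM in control testis (-0.35), with exons that overlap Cdc23, and Wee1, the kinase that holds CDK1 inactive, at 62.8 CPM with BPA against 74.2 CPM in control (-0.24). Wee2 was listed at 0 in both libraries. Other polo and NEK kinases, 8 of 9 at 1 CPM, had a median of 0.04. Nek10 stood at 9.89 CPM in BPA testis, against 7.87 CPM in control testis (0.33), and Plk5 at 1.59 CPM with BPA against 1.32 CPM in control (0.25), and Nek5 was listed at 0. None of these 8 relatives reached 2-fold.

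**Figure D4:**
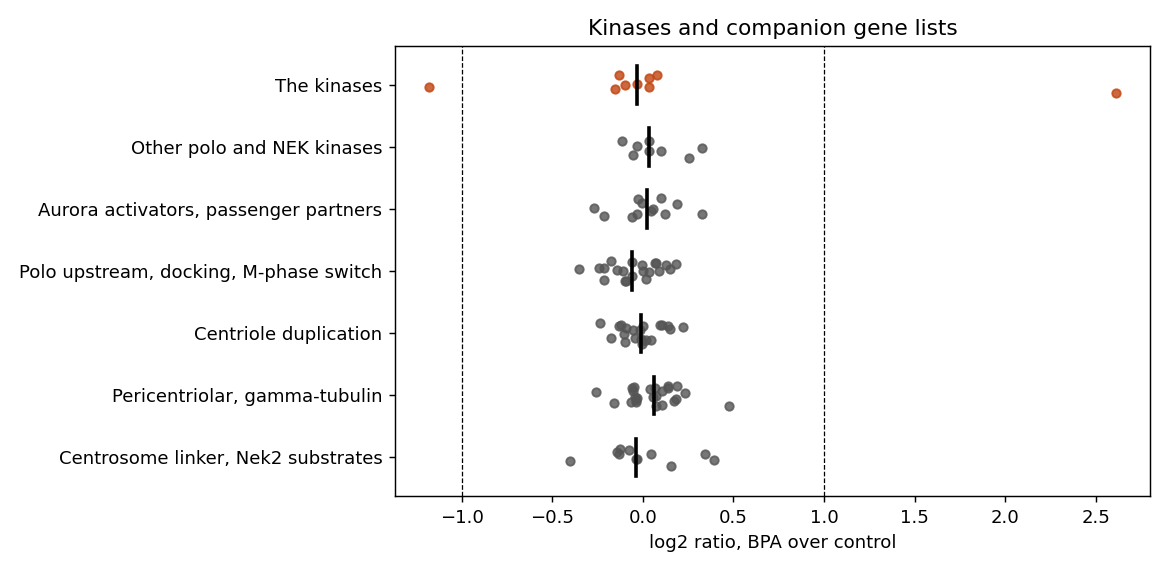
log2 ratio of BPA over control for the 9 kinases at 1 CPM or more and for the 6 companion lists (points are genes, spread at random in height, black bars are medians and dashed lines mark 2-fold). Plk4 at 2.61 and Nek2 at -1.18 are the points beyond the lines, and the 97 companion genes lie between -0.40 and 0.47.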

How the data were processed

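Per the labels' protocols, Trizol testis RNA was bound to oligo(dT) beads, fragmented and primed with random hexamers. HISAT2 2.0.4, HTSeq 0.6.1 and build mm10 are named, per the submitters' processing notes; the sources used here give no annotation, scaling method or test program. The authors deposited 1 CPM value per library for 44002 rows, with a log2 fold change, p-value and q-value. Deposited CPM under 1 is written as 0, and 10618 rows have no value. In each library every value above 0 is a whole number of equal steps (tolerance 2.33e-10), and 1 step was taken as 1 read. Where 1 library was listed at 0, the deposited log2 fold change gave 1404 further values, all whole reads within 0.01 read.

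Log2 ratios used a pseudocount of 0.1 CPM among genes that reached 1 CPM in either library. The ratio is understated for low genes. Folds are plain CPM ratios with exact 95% intervals of the reads (Clopper-Pearson for ratios, Poisson for levels). These cover counting error only, since each group has 1 library. PCR copies are not independent molecules, so the intervals may be too narrow even for that. No count model was fitted and no test made. RefSeq (GRCm38.p6, the build that mm10 names) gave symbols for 40269 of 41571 numeric gene IDs, spans and promoters, and GENCODE, on the same build, exon lengths, overlaps and shared 50-base words. Spans are those of RefSeq. Named genes are the kinases, in each companion list the 2 largest log2 ratios in size and any gene 2-fold apart, the called or nearest neighbours of Plk4 and Nek2, and the 3 genes nearest to each in level; Rhox8 and the neighbours named near Aurka were chosen after their values were seen. Members and lists were chosen with earlier results of these data known. Python 3.11.15, numpy 2.4.6, pandas 2.3.3, scipy 1.17.1 and matplotlib 3.10.9 were used.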

Additional observations from a re-analysis of the deposited data

How the results depend on the processing

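The counts for the kinases, 1 higher and 1 lower, held with other scalings (trimmed mean of log ratios, median ratio), a floor of 4 CPM, no floor, a pseudocount of 1 CPM or none, a threshold of 1.5-fold, the nearer interval bound and listed zeros taken as 0. At 4-fold, 0 kinases were lower and 1 was higher. With the authors' fold changes of all rows, an alternative chosen after seeing the data, 2 were higher, because Plk3 under 1 CPM entered. The companion counts of 0 held, save that 1 gene, Tubg2, was higher with listed zeros as 0, where its control level, just under 1 CPM, is written as 0. The counts over all genes, 256 higher and 379 lower, were 80 and 103 once 4 CPM was the floor, 82 and 123 with a pseudocount of 1 CPM, 828 and 1042 at 1.5-fold, 55 and 85 at 4-fold, 100 and 162 on the nearer bound, 686 and 937 with listed zeros as 0, and 1938 and 2582 with the authors' fold changes. The no-floor setting changed none of these counts, because the table lists no value under 1 CPM. No single kinase ratio that was called changed sign. The log2 ratio of Plk4 was 2.30 with a pseudocount of 1 CPM. Levels per length moved past their counting interval in 16 of 20 cases with the longest transcript as length. No paired analysis was possible because each group has 1 library, and for the same reason no replicate could be left out. Depth limits Plk3 most, at 29 reads with BPA and 13 in control.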
